A study of Drosophila melanogaster with 2 samples.

Results

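The genes described here are 10 regulators of neural fate and of neurons in Drosophila melanogaster: the Sox factor genes SoxN and D, the homeobox genes vnd and pros, the neuroblast genes ase, wor and dpn, the zinc finger gene nerfin-1, and elav and fne, which encode neuronal RNA-binding proteins. They are 10 of the 17896 annotated genes on the 6 chromosome arms with peaks. They were chosen by name with earlier results of these data known, and every peak whose summit lay in the gene body or within 5 kb of it was taken as theirs. The data are chromatin immunoprecipitation followed by sequencing (ChIP-seq) from whole embryos aged 0 to 12 h, in 1 group of 2 biological replicates. Both replicates are of 1 line that expresses CG2202 fused at its C-terminus to green fluorescent protein (GFP), which was precipitated with an antibody against GFP. The 4 peak lists are those of replicate 1, of replicate 2 and of both replicates pooled, with 30000 peaks each, and a list of 3571 peaks passed by the irreproducible discovery rate (IDR) procedure, which scores how well peaks repeat between replicates. The IDR peaks were the 3571 pooled peaks of highest signal, so membership in that list is a level of pooled signal. Signal is the peak caller's own value per peak and is read by its rank within a list. Read depth is unknown, and there is no second condition, so the values below are descriptions set beside all genes or all peaks, with no test. In whole embryos, strong binding in few cells and weak binding in many cannot be told apart, and peaks do not measure expression.

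In the fly embryo, group B Sox proteins and columnar homeodomain proteins such as Vnd mark the neuroectoderm, the sheet of cells from which neural stem cells, the neuroblasts, delaminate. Neuroblasts express Asense, Worniu and Deadpan and divide asymmetrically, passing Prospero to the daughter that will make neurons or glia. New neurons then switch on Nerfin-1 and the ELAV family of RNA-binding proteins, which set neuron-specific splicing and 3′ ends of messenger RNAs.

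IDR peaks lay at 8 of the 10 genes. In all, 16 IDR summits and 73 pooled summits fell in the 10 windows, which cover 260.4 kb. Over all 17896 genes, 36.6% had an IDR summit in the gene body or within 5 kb. There were 3 IDR summits each at elav, pros and nerfin-1, 2 each at fne and D, and 1 each at vnd, ase and SoxN, whereas wor and dpn had 0. Windows with 3 or more made up 4.65% of those of the 13945 protein-coding genes. Windows differ in length, from 12.3 kb at wor to 89.1 kb at pros, with a median of 13.7 kb, against 11.7 kb for all genes. The part of window length in the counts per gene was not tested. Per 100 kb, the 10 windows held 6.14 IDR summits and the windows of all genes joined together held 2.94, while pooled summits numbered 28.0 and 24.4 per 100 kb.

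The sequence at 9 of these summits is shown because these are the peaks to which most of the values below refer. Each window reaches 50 bp either side of the summit and is read on the strand of the named gene from the RefSeq Release 6 genome (dm6). The 3′ UTR windows are not shown. Capitals mark any of 12 words searched on both strands: TATCGATA (the DRE word), GAGAG (GAGA factor), CAGGTA (the Zelda core), the E-box words CAGGTG (Snail family), then CAGCTG (proneural factors), then CACGTG (like CAGCTG, a palindrome), CACTTG (NK2 class), the Sox words ACAAAG (long form) and ACAAT (short form), TGGGAA (the core of the Su(H) word), TAATTA (homeodomain) and the AT-rich word TTTAAAAA.
elav promoter, chrX:523426-523526, minus strand: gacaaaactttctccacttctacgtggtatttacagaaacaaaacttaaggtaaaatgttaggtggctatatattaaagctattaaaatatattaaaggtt
vnd promoter, chrX:581996-582096, plus strand: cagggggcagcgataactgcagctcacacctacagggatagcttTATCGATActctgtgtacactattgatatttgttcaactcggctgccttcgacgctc
SoxN promoter, chr2L:8825506-8825606, plus strand: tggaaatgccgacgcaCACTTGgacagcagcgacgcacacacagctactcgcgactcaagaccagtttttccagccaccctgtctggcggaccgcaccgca
D downstream, chr3L:14174333-14174433, minus strand: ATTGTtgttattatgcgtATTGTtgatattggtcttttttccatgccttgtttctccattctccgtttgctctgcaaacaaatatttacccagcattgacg
nerfin-1 far upstream, chr3L:904494-904594, plus strand: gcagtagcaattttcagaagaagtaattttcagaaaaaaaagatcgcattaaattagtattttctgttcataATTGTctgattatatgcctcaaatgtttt
fne intron, chrX:12925957-12926057, plus strand: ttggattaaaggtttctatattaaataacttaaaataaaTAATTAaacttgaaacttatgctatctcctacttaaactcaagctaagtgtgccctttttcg
ase upstream, chrX:458018-458118, plus strand: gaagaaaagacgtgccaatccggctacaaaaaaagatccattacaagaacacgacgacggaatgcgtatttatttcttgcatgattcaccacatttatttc
pros intron, chr3R:11368892-11368992, plus strand: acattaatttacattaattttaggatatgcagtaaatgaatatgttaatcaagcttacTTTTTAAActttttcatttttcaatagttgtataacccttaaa
pros downstream, before Irbp, chr3R:11409924-11410024, plus strand: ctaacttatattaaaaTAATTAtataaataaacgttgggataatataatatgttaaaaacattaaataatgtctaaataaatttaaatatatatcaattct

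The windows differ widely in base composition and no word of the 12 is in all of them. The elav promoter window, at the strongest peak of the set, and the ase window held none of them. Among all 16 IDR summits of the genes, ACAAT was found at 4, both at D and 2 of the 3 at nerfin-1, a share of 25% against 30.7% of all IDR summits and 26.4% of all pooled summits. TTTAAAAA was found at 2, 1 each at pros and nerfin-1 (12.5%, against 6.30% and 3.04%), TAATTA at 2, at fne and downstream of pros (12.5%, against 9.97% and 6.69%), and GAGAG at 2, in the 3′ UTR peaks of fne and pros (12.5%, against 9.38% and 12.4%). The palindrome TATCGATA lay at 1 summit, that of the vnd promoter (6.25%, against 1.15% and 1.04%), and CACTTG at 1, that of the SoxN promoter (6.25%, against 5.46% and 6.87%). The other 6 words were found at 0 of the 16. Among all IDR summits and all pooled summits, the shares were 1.93% and 2.25% for CAGGTA, 2.27% and 3.54% for CAGGTG, 3.44% and 4.98% for CAGCTG, 0.728% and 1.15% for CACGTG, 7.39% and 7.26% for ACAAAG, and 4.98% and 5.76% for TGGGAA. With 16 windows, counts of 0 to 2 cannot be told from shares of this size. TTTAAAAA was a word of the earlier results of these data, so its shares are not independent of them. A match describes the letters in the window and not a bound factor.

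**Figure D1:**
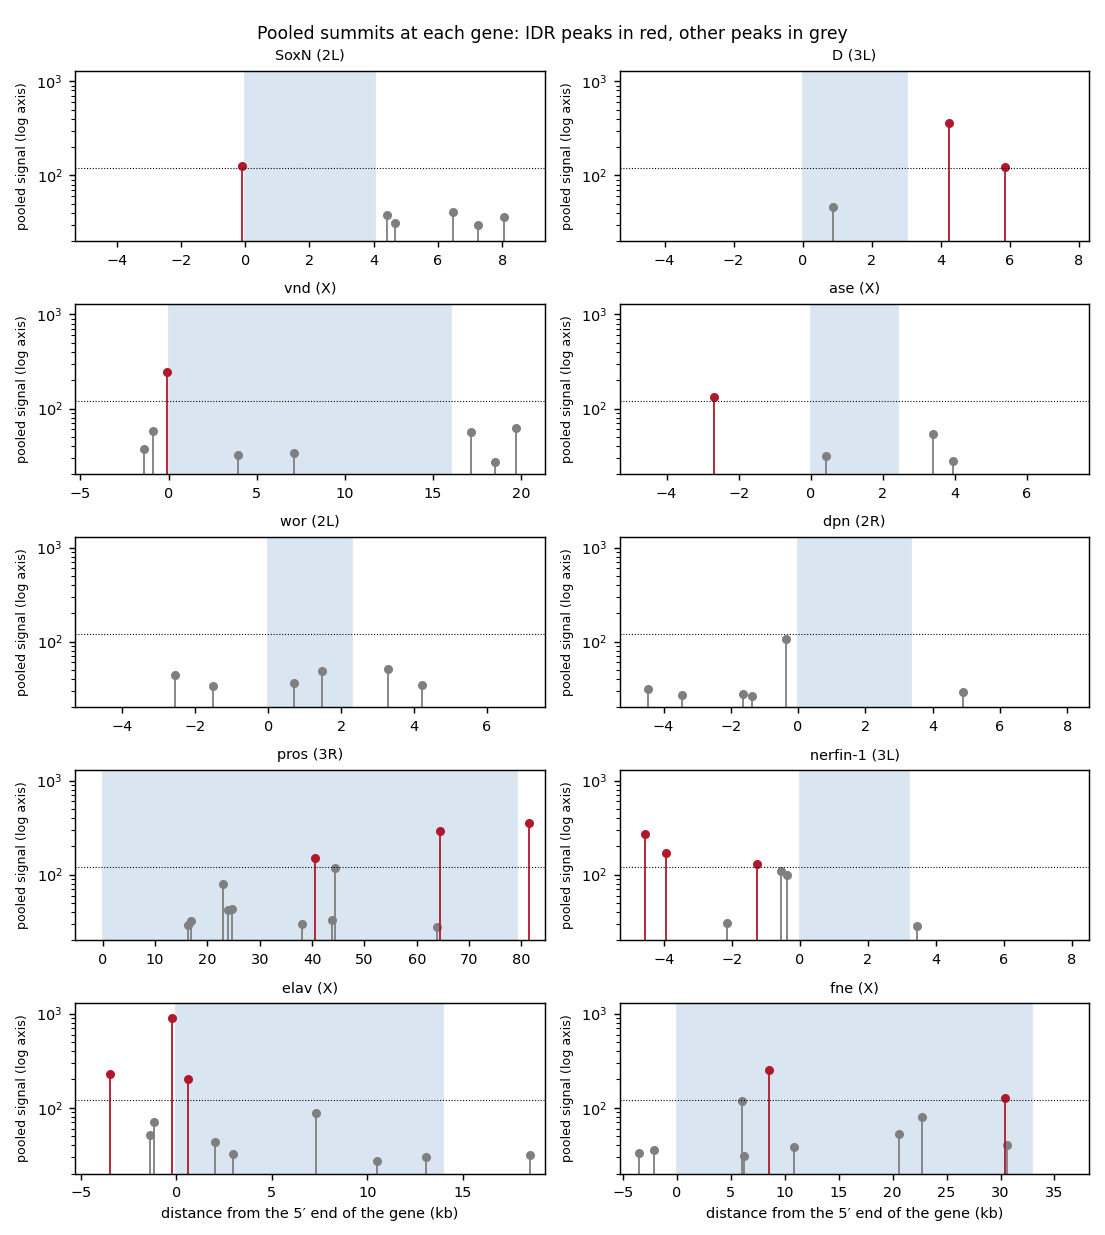
Pooled summits at each of the 10 genes, plotted as signal (log axis) against distance in kb from the 5′ end of the gene along its direction of transcription, with the gene body shaded, IDR peaks in red and other pooled peaks in grey. The dotted line is the lowest signal in the IDR list, 120.9. The elav promoter peak at 905.7 is the highest, and wor and dpn have no red peak.

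The group B Sox genes each had IDR peaks, placed differently. SoxN (FBgn0029123, chromosome 2L, 8825645 to 8829670, plus strand), a gene for an early neuroectoderm Sox protein, had 1 IDR peak, centred 89 bp upstream of its only transcription start site (TSS). Its signal was 127.0 in the pooled list (rank 3321), 76.3 in replicate 1 (rank 2599) and 55.6 in replicate 2 (rank 4653). The other 5 pooled summits of SoxN all lay downstream of the gene, with signals from 30.0 to 40.9, and each overlapped a peak of replicate 1 and none of replicate 2. D (Dichaete, FBgn0000411, 3L, 14175610 to 14178620, minus strand), a gene for a related Sox protein, had both IDR summits downstream of the gene, in intergenic sequence. The stronger lay 3154 bp downstream of the nearest TSS of D, with a pooled signal of 361.9 (rank 569), 235.5 in replicate 1 (rank 302) and 119.6 in replicate 2 (rank 1448). The weaker lay 4790 bp downstream, at 121.8 (rank 3526), close to the lowest signal of the IDR list, with ranks of 4395 and 3801 in replicates 1 and 2. The promoter summit of D, 216 bp upstream of an internal TSS, was not in the IDR list (46.5, rank 13884) and overlapped a peak of replicate 1 (rank 7999) but none of replicate 2.

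The peak of vnd lay at its promoter. This gene (FBgn0261930, X, 582121 to 598151, plus strand) encodes an NK2-class homeodomain protein of the ventral neuroectoderm. The summit was 75 bp upstream of the first TSS, at 242.0 in the pooled list (rank 1221). Replicate 1 gave 173.0 (rank 584) and replicate 2 gave 68.6 (rank 3362), so the peak stood higher among the peaks of replicate 1. The other 7 pooled summits had signals of 26.9 to 61.4. They lay 895 and 1393 bp upstream, in introns of the gene and downstream of it, and the intronic and downstream ones also lie within spdi, a gene on the opposite strand.

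The 3 neuroblast genes had 1 IDR peak between them. It lay 2679 bp upstream of the TSS of ase (FBgn0000137, X, 460747 to 463176, plus strand), a basic helix-loop-helix gene of the achaete-scute complex, within an intron of CG32816, a gene on the opposite strand that spans ase. Its signal was 134.0 in the pooled list (rank 3068), 94.0 in replicate 1 (rank 1832) and 37.4 in replicate 2 (rank 8404). A promoter summit of ase, 431 bp downstream of the TSS, had a pooled signal of 31.6 (rank 23774) and overlapped no peak of either replicate. The remaining pair lay downstream of ase, at 54.1 and 27.9.

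At wor, a Snail-family zinc finger gene (FBgn0001983, 2L, 15423297 to 15425580, minus strand), the 6 pooled summits had signals of 33.6 to 50.7, and the strongest, 3275 bp downstream of the TSS in the flank, ranked 12333. It was the only one of the 10 genes with no pooled summit within 500 bp of a TSS, and the nearest IDR summit was 16833 bp from the gene. Each replicate list did hold a weak wor promoter summit, at -162 bp from the TSS in replicate 1 (rank 20394) and at 75 bp in replicate 2 (rank 20127), and these peaks overlapped each other. Of the 6 summits, 2 lay in its coding sequence, at 48.6 and 36.0.

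At dpn, a gene for a Hairy-type repressor that keeps neuroblasts in self-renewal (FBgn0010109, 2R, 8228971 to 8232330, minus strand), the strongest summit was 349 bp upstream of the TSS. Its signal of 106.5 ranked 4366 in the pooled list, short of the IDR list, with 46.8 (rank 5737) in replicate 1 and 50.8 (rank 5334) in replicate 2. The caller's q-value for it was below 0.05. The other 5 summits of dpn had signals of 26.7 to 31.7, and the one at 31.7 lay 467 bp upstream of the TSS of a neighbouring gene, pnut. The nearest IDR summit lay 5057 bp from the gene, just outside the window and 116 bp inside pnut, a septin gene, so the count for dpn depended on the width of the flank.

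At pros (FBgn0004595, 3R, 11328480 to 11407627, plus strand), a homeobox gene of 79.1 kb whose protein limits division in neuroblast daughters, the IDR peaks lay in an intron, in the 3′ UTR and in the downstream flank. The strongest had a pooled signal of 352.1 (rank 598), 106.7 in replicate 1 (rank 1446) and 250.4 in replicate 2 (rank 346). It is in the window of pros by the 5 kb rule, but it is centred 73 bp upstream of the TSS of Irbp, a gene for a DNA repair protein, and so is a promoter peak of another gene. Its window had the lowest GC content of the 16, at 12.9%.

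The other pair of IDR peaks at pros overlapped peaks of replicate 1 alone. The 3′ UTR peak, 20181 bp from the nearest TSS, had a pooled signal of 292.3 (rank 860) and 205.2 in replicate 1 (rank 428), and the intronic peak, 3846 bp upstream of the most internal TSS, had 149.1 (rank 2627) and 82.3 (rank 2272). No peak of replicate 2 overlapped either, although that list reaches down to a signal of 15.9. The nearest replicate 2 summits were 1400 bp away (rank 22288) and 3775 bp away (rank 6840). Only 20 of all 3571 IDR peaks, 0.560%, overlapped no peak of replicate 2, and 2 of these 20 lay at pros. A promoter summit at the internal TSS of pros, 8 bp from it, had 116.8 (rank 3781) with ranks of 2455 and 6840, just below the lowest IDR signal. The remaining 8 pooled summits, 6 of them in introns, ranged from 27.9 to 78.9. Of those 6, 3, including the strongest at 78.9 (ranks 6936 and 5633), also lay within the nested opposite-strand genes KP78a and KP78b. The one at 43.1 was 21 bp from the TSS of KP78b, and so is a promoter peak of another gene.

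At nerfin-1 (FBgn0028999, 3L, 909112 to 912319, plus strand), a zinc finger gene of young neurons, all 3 IDR summits lay upstream. They were 4568, 3934 and 1273 bp from the TSS, with pooled signals of 269.6 (rank 1001), 171.3 (rank 2118) and 130.4 (rank 3193). The ranks were 1222, 3125 and 5017 in replicate 1 and 945, 1976 and 2795 in replicate 2, so each stood higher in replicate 2 and the order of the 3 was the same in both. Summits 574 bp upstream (109.6, rank 4173) and 371 bp upstream (rank 4824) fell short of the IDR list. The q-value was below 0.05 for all 5, and these upstream summits made up 5 of the 7 pooled summits of the gene. The IDR summits 4568 and 3934 bp upstream lay 1646 and 2280 bp downstream of the TSS of the neighbouring gene mat, past that gene's end. Both were thus nearer to the TSS of mat than to that of nerfin-1, and both genes are on the same strand.

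The ELAV family genes elav and fne had IDR peaks, and the strongest of the set was at elav. At elav (FBgn0260400, X, 509235 to 523226, minus strand), the promoter summit was 250 bp upstream of the outer TSS, which it shares with the noncoding RNA gene lncRNA:enrr. Its signal was 905.7 in the pooled list (rank 51), 419.3 in replicate 1 (rank 63) and 484.1 in replicate 2 (rank 69). It was the only peak of the 16 within the top 100 of either replicate. A second IDR summit lay 626 bp downstream of that TSS in the first intron, at 201.6, with ranks of 1637 and 1705. The third lay 3450 bp upstream, at 231.0, with ranks of 839 and 2781, and was nearer to the TSS of another gene, CG4293, at 3173 bp. All 3 lie within arg, an opposite-strand gene that overlaps most of elav, so the data do not assign them to 1 of these genes. The inner TSS of elav had a summit 30 bp away at 32.1 only (rank 23281). In its long 3′ UTR, 3 summits ranged from 27.0 to 88.5, and the strongest had ranks of 6557 and 6962.

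At fne (FBgn0086675, X, 12917477 to 12950417, plus strand), a paralog of elav, both IDR summits lay inside the gene. The stronger, in the second intron 8523 bp downstream of the outer TSSs, had 254.1 (rank 1126), with 105.5 in replicate 1 (rank 1482) and 139.9 in replicate 2 (rank 1123). The weaker, in the 3′ UTR, had 127.7 (rank 3301), with 93.8 in replicate 1 (rank 1837) and 28.3 in replicate 2 (rank 12668). An intronic peak 5996 bp from the TSS, at 116.6, went the other way, with ranks of 9601 and 2598. The promoter summit of fne, 479 bp upstream of an internal TSS, had 52.2 and was matched in replicate 2 alone (rank 6444). No pooled summit lay within 500 bp of the outermost TSSs of fne, whereas elav had its strongest there.

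Few of the IDR peaks were at promoters. An IDR summit within 500 bp of a gene's own TSS was found at 3 of the 10 genes, elav, vnd and SoxN, against 12.1% of all genes. Another 6 had a pooled promoter summit outside the IDR list. The share of all genes with a pooled promoter summit is not given here. Of the 73 pooled summits, 13 (17.8%) were at a promoter of any annotated gene, where 32.2% of all pooled summits were. Of the 16 IDR summits, 3 were at promoters of the genes, 3 in introns, 2 in 3′ UTRs, 5 in upstream and 3 in downstream flanks, and 0 in coding exons. Counted against all annotated genes, 4 of 16 (25%) were at a promoter, where 45.3% of all IDR summits were, 5 (31.2%) in introns against 36.4%, 5 (31.2%) in intergenic sequence against 15.8%, and 2 (12.5%) in 3′ UTRs against 0.700%. All 5 intergenic summits lay at D and nerfin-1, so that count rests on these genes alone. The 3′ UTR count rests on 1 peak each at pros and fne, and both ranked lower, or had no match, in replicate 2.

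The IDR peaks of the genes varied widely in signal. Their median signal was 216.3 (quartiles 133.1 to 275.3, range 121.8 to 905.7, n = 16), against 193.5 (147.0 to 284.9) for all IDR peaks. Of the 73 pooled summits, 16 were in the IDR list (21.9%, exact 95% interval 13.1 to 33.1%), where 11.9% of all pooled summits were, and 33 had a q-value below 0.05 (45.2%, 33.5 to 57.3%), where 44.0% of all were. These exact binomial intervals cover counting only, and summits of 1 gene are not independent. The median signal of the 73 was 43.0, and that of all pooled peaks 44.1. Of the 16, 10 were narrower than the usual 400 bp (48.7% of all IDR peaks were).

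**Figure D2:**
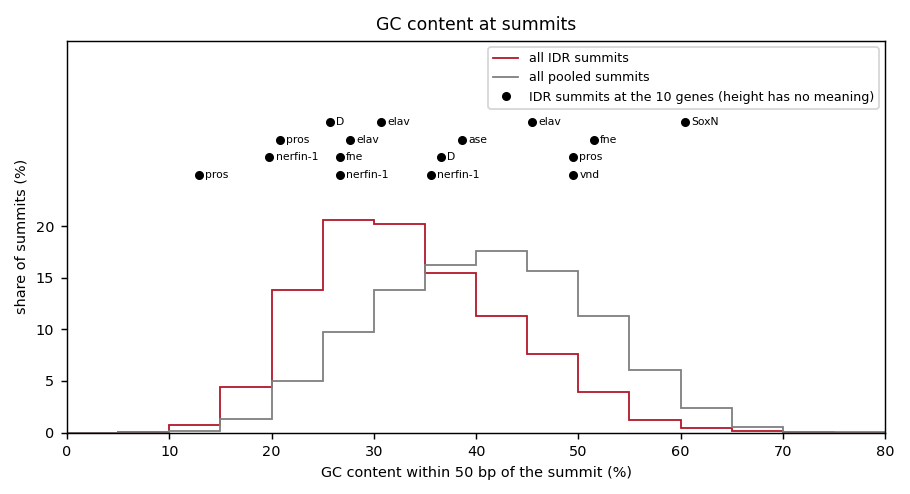
GC content within 50 bp of each IDR summit at the 10 genes (black points, named by gene, whose height has no meaning) above the distribution over all IDR summits (red) and all pooled summits (grey), as shares in bins of 5%. The points run from 12.9% at the peak downstream of pros to 60.4% at the SoxN promoter.

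Base composition varied widely among the IDR peaks of the genes. Within 50 bp of their summits, median GC content came to 33.1% (quartiles 26.4 to 46.5%), against 32.7% (26.7 to 39.6%) for all IDR summits. Of the 16, 11 (68.8%) were below the median of all pooled summits, 40.6%, as were 75.4% of all IDR summits, with the elav promoter at 27.7% and the fne intron at 26.7%. The highest values belonged to the SoxN promoter (60.4%), the 3′ UTR peaks of fne (51.5%) and pros (49.5%), the vnd promoter (49.5%) and the first intron of elav (45.5%).

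**Figure D3:**
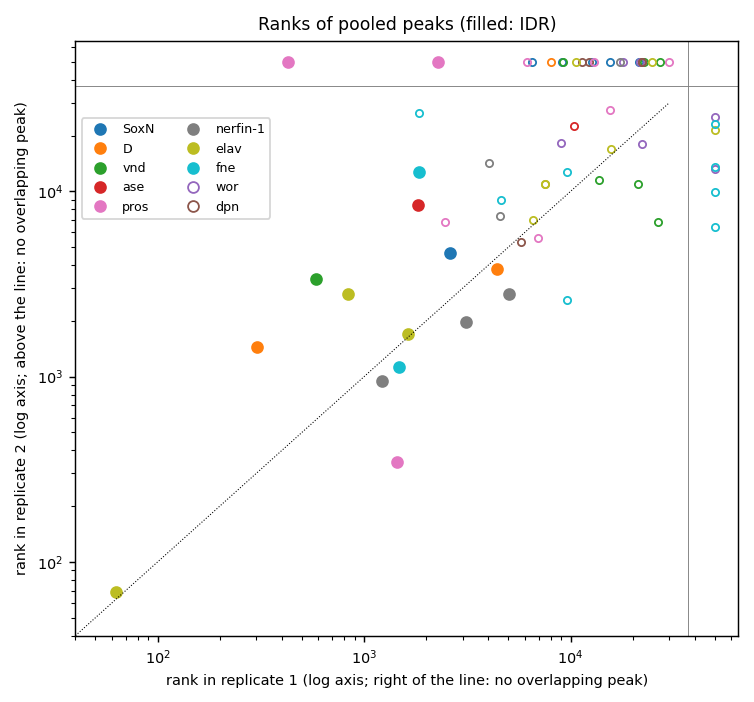
Rank in replicate 1 (x) and replicate 2 (y), both log axes, of the pooled peaks at the 10 genes, coloured by gene, with IDR peaks filled. Points past the grey lines overlapped no peak of that replicate, and the dotted line marks equal ranks. The elav promoter peak is at ranks 63 and 69, and both filled points above the upper line are peaks of pros.

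The 2 replicate lists did not hold the same peaks at these genes. Both lists had a peak overlapping 14 of the 16 IDR peaks (87.5%, exact 95% interval 61.7 to 98.4%), where the share for the whole IDR list was 98.5%. Among the 16, 9 were within the top 3571 of both lists (56.2%, 29.9 to 80.2%), where 62.9% of all were. The top 3571 of replicate 1 held 14 and that of replicate 2 held 10, against 80% and 81.2% of all IDR peaks. Among the 14 found in both, 8 ranked higher in replicate 1, as did 46.7% of all IDR peaks found in both. Of the 73 pooled peaks, 34 overlapped peaks of both replicates (46.6%, against 58.3% of all pooled peaks), 23 of replicate 1 alone (31.5%, against 19.2%), 7 of replicate 2 alone (9.59%, against 17.8%) and 9 of neither (12.3%, against 4.65%).

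Counted in the replicate lists themselves, 87 summits of replicate 1 and 53 of replicate 2 lay in the 10 windows, so that replicate 1 gave 62.1% of them. There were 7 genes with more summits in replicate 1, while elav and fne had fewer and ase had 3 in each. The counts were 20 and 7 at pros, 12 and 5 at vnd, 11 and 3 at SoxN, 9 and 5 at nerfin-1, 7 and 2 at dpn, 4 and 2 at D, and 6 and 5 at wor, against 10 and 11 at elav and 5 and 10 at fne. Over the 9616 protein-coding genes with at least 5 summits in the 2 lists together, replicate 1 gave a median of 50% of a window's summits (quartiles 40% to 56.5%), and it gave the larger number at 37.0% of them. Shares at or above that of vnd, 70.6%, occurred at 4.10% of these genes, and SoxN (78.6%), dpn (77.8%) and pros (74.1%) were higher still, while fne was at 33.3%.

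Much of the excess was in weak peaks. Among summits with a q-value below 0.05, replicate 1 had 34 and replicate 2 had 28, a share of 54.8%, where it held 47.1% of all such peaks. Without pros, the counts over all summits were 67 and 46 (59.3%). In introns of the genes replicate 1 had 24 summits and replicate 2 had 10, of which pros held 14 and 3, so that without pros the counts were 10 and 7. No such split is given for the introns of all genes. Of the replicate 1 summits, 32 overlapped no pooled peak, the best of them at rank 10150, and of the replicate 2 summits 10 did, the best at rank 12126. The shares of all replicate 1 and all replicate 2 peaks that overlapped no pooled peak are not given here. Window GC content ranged from 37.7% at fne, the lowest, to 45.0% at vnd and nerfin-1. Over the protein-coding genes, the median share from replicate 1 was 46.2% in the 2404 windows of lowest GC content and 50% in the 2404 of highest. The part of GC content in the counts of the 10 genes was not tested.

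**Figure D4:**
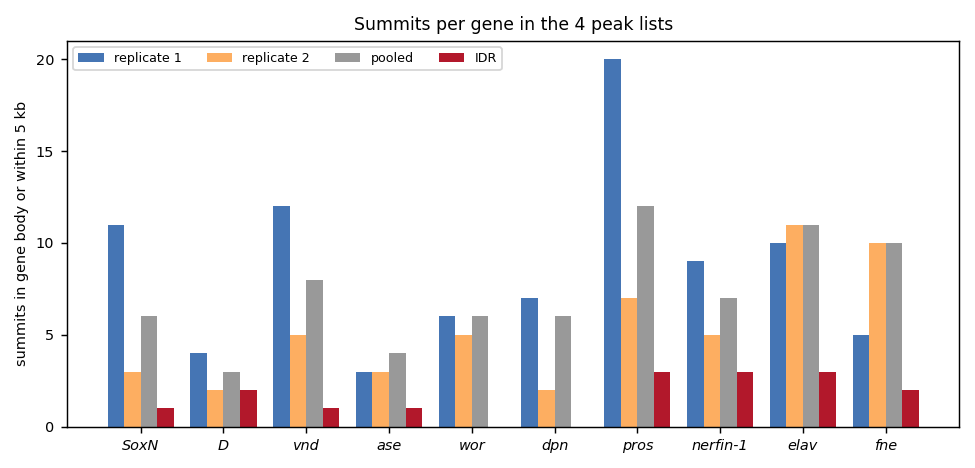
Number of summits in the gene body or within 5 kb of each gene, in replicate 1 (blue), replicate 2 (orange), the pooled list (grey) and the IDR list (red). Replicate 1 has 20 summits at pros and replicate 2 has 7, while fne shows 5 and 10.

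IDR peaks were also counted at other neural regulators. Of 29 proneural and early neural genes, such as the achaete-scute genes, the temporal factor genes and the genes for asymmetric division, 8 had an IDR summit in the gene or within 5 kb (27.6%, against 36.6% of all genes) and 4 at a promoter (13.8%, against 12.1%). The median window of these genes was 13.8 kb, where that of all genes was 11.7 kb. The strongest promoter peak was at numb, which encodes an inhibitor of Notch signalling passed on in asymmetric divisions, at 730.3 with ranks of 130 in replicate 1 and 100 in replicate 2. Those of grh (134.6), brat (128.4) and scrt (128.3) were near the lowest signal of the IDR list. brat, a gene for a translational repressor in neuroblast daughters, had 6 IDR summits in its window, whose length is not given here. Of 12 neuronal identity genes, mostly of homeodomain and zinc finger factors, 7 had an IDR summit in the window (58.3%, against 36.6% of all genes), among them lola and zfh1 with 3 each and tup and Lim1 with 2 each, and 0 had one at a promoter, against 12.1%. Their median window was 36.1 kb, and the part of window length in these counts was not tested. Summed over the windows of the genes, replicate 1 gave 254 summits and replicate 2 gave 156 in the first list (62.0% from replicate 1). In the second list these sums were 207 and 154 (57.3%). A summit in overlapping windows is counted for each gene, so the sums can exceed the numbers of distinct summits. Windows of neighbouring genes overlap in part: the 8 genes of the first list held 15 distinct IDR summits, against 16 when summed per gene.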

How the data were processed

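ChIP-seq of embryos from the CG2202-GFP line was analysed as deposited peak lists on dm6. The deposited text files name as inputs an alignment and a control for each replicate list, both alignments and the control for the pooled list, and these 3 lists for the IDR list. For the aligner, peak caller and IDR threshold, the labels and files used here name none. The deposited signal was set by the caller. The deposited −log10 q-value was 4.12 at all 16 IDR peaks described, so it does not rank them. Depth is unknown, so no interval based on reads was computed.

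Summits were taken as the start plus the deposited offset, written 1-based. Genes and TSSs came from Ensembl release 115, without pseudogenes and transposable elements (17896 genes, 23722 TSSs). Promoter summits were those up to 500 bp from any TSS. A pooled or IDR peak was matched to the replicate peak overlapping it by 1 bp or more with the nearest summit, and 2 peaks can match 1 replicate peak. The members, gene lists and words were chosen with earlier results of these data known. Named genes are the 10 members, with all IDR peaks and the strongest pooled peak, and, of the wider lists, up to 4 genes with the highest promoter signal. The further genes named from those lists, and the pros peaks with no match in replicate 2, were chosen after their values were seen. Alternatives were other flanks, promoter windows, matching rules, summit windows, a list of 1000 peaks, peaks with a q-value below 0.05, and each replicate's top 3571 peaks. Assignment and matching were tested on simulated data. Software was Python 3.11.15 with scipy 1.17.1, pandas 2.3.3, numpy 2.4.6 and, for plots, matplotlib 3.10.9.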

Additional observations from a re-analysis of the deposited data

How the results depend on the processing

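The counts depended mainly on the flank and on the list. The shares over all genes given above hold for the main setting only. None are given for the settings below, so these counts do not show how the genes stand against all genes. With the gene body alone, 3 genes held 5 IDR summits, 3 of them found in both replicates, and 31 pooled summits. With a flank of 2 kb there were 10 IDR summits, 8 of them found in both replicates. The 1000 IDR peaks of highest signal gave 4 summits at 3 genes, and 1 gene, elav, with a promoter summit. Pooled peaks with a q-value below 0.05 gave 33 summits, and 7 genes with a promoter summit. The top 3571 peaks of replicate 2 alone gave 11 summits at 6 genes, 2 with a promoter summit, and those of replicate 1 alone 15 at 8 genes, 4 with a promoter summit. The share of pooled summits in the IDR list was 16.1% to 19.3% with other flanks. A reciprocal overlap of 50% lowered the IDR summits found in both replicates from 14 to 10 of 16, while matching by summits within 100 bp left 14 and changed 0 of 30 replicate ranks. Windows of 100 bp either side moved the counts of 6 of the 12 words by over 1.5 times. The IDR list derives from both replicates, so agreement with them is not independent. No paired analysis was possible because there is 1 group.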

Other observations

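Genes that act later in neurons, and glial genes, were counted in the same way. Of 16 neuronal effector and RNA-binding protein genes, 9 had an IDR summit in the gene or within 5 kb (56.2%, against 36.6% of all genes), and 1 had one at a promoter (6.25%, against 12.1%), Syx1A, a gene of synaptic vesicle fusion, at 130.7. The median window of the list was 35.6 kb, against 11.7 kb for all genes, and its part in the count was not tested. Syx1A had 3 IDR summits in its window. The others were Rbp9, also an ELAV family gene, with 2, robo1 and Appl with 2 each, and ChAT, VAChT, nSyb, CadN and Fas2 with 1 each. These 9 genes held 13 distinct IDR summits, against 14 when summed per gene. Some of their windows thus share a summit, and the 9 genes are not all separate counts. Summed over the windows of this list, the replicates gave 117 and 118 summits, a share of 49.8% from replicate 1. A summit in overlapping windows is counted for each gene here too, so which replicate had more distinct summits is not given.

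Of 6 glial genes, 3 had an IDR summit in the window (50%, against 36.6% of all genes), pnt with 11, moody with 1 and repo with 1. At a promoter, 2 had one (33.3%, against 12.1%, in a list of 6 genes), moody at 354.2 and pnt, an ETS factor gene, at 123.9. The promoter peak of moody, which encodes a receptor of the blood-brain barrier, had ranks of 793 in replicate 1 and 475 in replicate 2. That of pnt had 2396 and 10688. Summed per gene, the glial windows held 103 summits of replicate 1 and 83 of replicate 2 (55.4% from replicate 1). The window of pnt, whose length is not given here, held 52 of the 103. The median window of the list was 15.0 kb, against 11.7 kb for all genes. The part of window length in these counts, and in the 11 IDR summits of pnt, was not tested.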
